A study of Homo sapiens with 4 samples.

Results

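YAP1, its paralog TAZ (gene symbol WWTR1), the TEAD factors they bind, a pair of upstream Hippo pathway proteins and 4 target genes were followed in SNU638 cells after knockdown of ACTL6A. The members were every probe set annotated with 1 gene symbol, where that symbol was YAP1, WWTR1, TEAD1, TEAD4, WWC1 or LATS2 (regulators) or CCN1, CCN2, ANKRD1 or AMOTL2 (targets). This gave 28 of the 54613 probe sets that are not array controls, 23 for the regulators and 5 for the targets, and 10 of 19775 named genes. SNU638 is an established human gastric cancer cell line. Scramble cells carried a scrambled short hairpin RNA (shRNA) and sh-ACTL6A cells an shRNA against ACTL6A, an actin-like subunit of the BAF chromatin remodelling complex. Each group had 2 arrays, and both groups came from the same line in the same serum-containing medium. The hairpins against ACTL6A were in the pLKO.1 vector, were delivered by lentivirus, and were followed by several days of puromycin. The labels do not settle whether the sh-ACTL6A arrays carried the same hairpin, nor whether replicate arrays stand for independent cultures, and the p-values therefore reflect no more than array-to-array spread, which may be technical.

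In the Hippo pathway, a kinase cascade ends in LATS1 and LATS2, which phosphorylate YAP and TAZ and keep them out of the nucleus. WWC1 (KIBRA) is a scaffold that promotes LATS activity. YAP and TAZ that reach the nucleus bind TEAD factors, which recognise the DNA letters GGAATG, and switch on genes such as CCN1, CCN2, ANKRD1 and AMOTL2. AMOTL2 and LATS2 act back on the pathway as inhibitors of YAP and TAZ, and both are themselves known as YAP target genes. In gastric epithelium, YAP and TAZ are known for promoting growth.

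Because the targets are read through TEAD, the promoter stretches of member genes that hold the TEAD letters are shown first. RefSeq promoter windows (GRCh38.p14, 250 bases before the annotated start to 50 after it) were held for 7 of the 10 genes, 9 windows in all. GGAATG or its reverse complement CATTCC was found in 1 window each of 5 genes. Each sequence below runs 5′ to 3′ on the gene's own strand, with the matched letters in capitals. CCN2 (chr6:131951373-131951622, minus strand) had 3 matches, beginning 169, 104 and 95 bases before the start. ANKRD1 (chr10:90921088-90921337, minus strand) had 2, at 220 and 128 bases before the start, and between them a match to the AP-1 letters TGANTCA at 195 bases. YAP1 itself (chr11:102110258-102110317, plus strand) had 1 match at 162 bases before the start, and the second start of AMOTL2 (chr3:134374484-134374543, minus strand) had CATTCC at 69 bases. The LATS2 stretch (chr13:21061560-21061589, minus strand) spans the start itself, and its match begins 10 bases after it.
CCN2: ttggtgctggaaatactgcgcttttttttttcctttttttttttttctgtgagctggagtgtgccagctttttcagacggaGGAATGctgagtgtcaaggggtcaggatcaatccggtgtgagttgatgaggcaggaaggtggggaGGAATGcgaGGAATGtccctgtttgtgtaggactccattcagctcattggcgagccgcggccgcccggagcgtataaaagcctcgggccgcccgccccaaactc
ANKRD1: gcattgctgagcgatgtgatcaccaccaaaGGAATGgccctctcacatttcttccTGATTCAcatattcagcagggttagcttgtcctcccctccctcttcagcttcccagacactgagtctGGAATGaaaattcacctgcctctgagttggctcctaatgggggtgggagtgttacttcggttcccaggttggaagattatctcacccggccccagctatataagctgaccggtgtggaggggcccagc
YAP1: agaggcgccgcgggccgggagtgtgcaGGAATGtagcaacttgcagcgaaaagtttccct
AMOTL2: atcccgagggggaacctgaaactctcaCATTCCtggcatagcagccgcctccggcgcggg
LATS2: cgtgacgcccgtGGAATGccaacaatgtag
Of 35116 RefSeq windows of this length, 14.03% held the TEAD letters at least once on either strand, 1.373% at least 2 times and 0.1281% at least 3 times, so the number of copies in the CCN2 window was shared by few others. TGANTCA, which reads the same on both strands, was in 7.709% of windows and overlapped no TEAD match in ANKRD1. The WWTR1 and WWC1 windows held neither. A match describes these letters and is not a measured binding site.

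**Figure D1:**
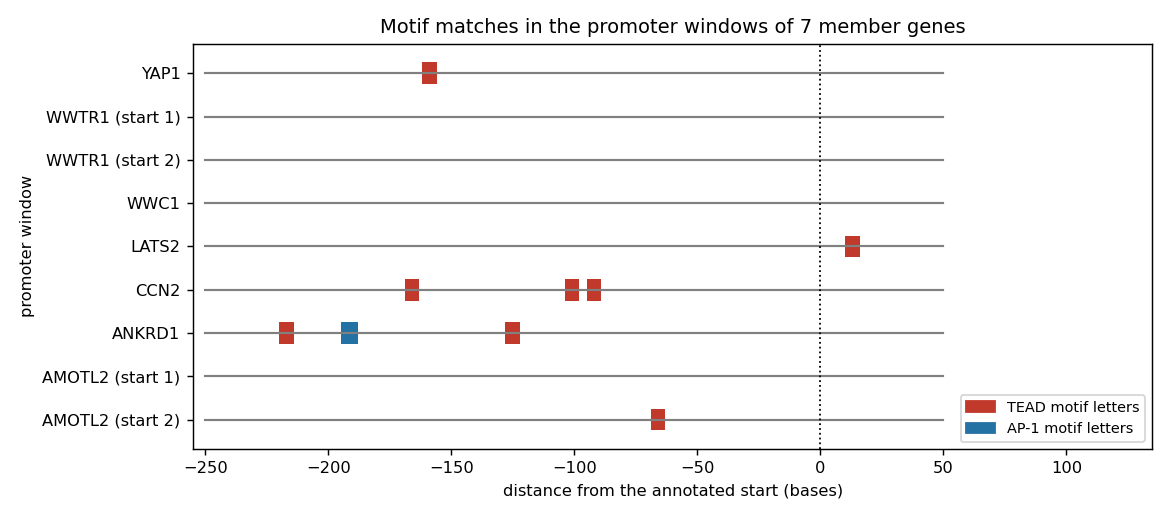
Positions of the TEAD letters (red) and the AP-1 letters (blue) in 9 promoter windows of 7 member genes, drawn by distance in bases from the annotated start (dotted line). CCN2 had 3 TEAD matches and ANKRD1 had 2, and the WWTR1 and WWC1 windows had none.

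ACTL6A was measured first as a check of the labels. Its log2 signal was 11.92 and 11.82 in scramble and 10.16 and 10.32 in sh-ACTL6A, a fall by 1.63 (SE 0.14, limma adjusted p = 0.0408). It was the only one of 12286 genes called at adjusted p under 0.05, which is 0.00814% of them. The ACTL6A difference missed the threshold, with a size of -1.64 to -1.63, when all genes were tested without a signal level (limma adjusted p = 0.0797), after quantile normalisation (0.0524) and with the trend of limma dropped (0.556). The ACTL6A difference also missed it by the methods' t-test (SE 0.09) once that test was adjusted over all genes (t-test adjusted p = 0.844), a step the methods do not name. It also missed without scramble replicate 1 (0.99958) or 2 (0.567). Genes were tested where the brightest probe set reached a mean log2 signal of 5.63 over the 4 arrays, the median of all probe sets that are not controls. Of the epithelial markers, 7 of 8 passed that level, and their summed linear signal was 46945 and 55003 in scramble and 40239 and 47038 in sh-ACTL6A. Leukocyte markers passed in 1 of 6 cases (ITGAM, near the level), with PTPRC below it. Fibroblast and endothelial markers passed in 3 of 8 cases, namely COL1A1 (8.44), PECAM1 (6.71) and DCN (5.82, near the level). COL1A2, COL3A1, LUM, PDGFRB and VWF were below it. The summed signal of these fibroblast and endothelial markers ran from 541 to 733 over the scramble arrays and from 575 to 664 over the sh-ACTL6A arrays. The 3′ minus 5′ log2 signal of the ACTB controls was 1.63 and 0.78 on scramble replicates 1 and 2 and 1.21 and 0.78 on sh-ACTL6A replicates 1 and 2, so it was higher on both arrays numbered 1.

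All 10 member genes passed the signal level. None was called by limma at adjusted p under 0.05, and their adjusted p-values ran from 0.739 to 0.997. At an unadjusted p under 0.05 there were 4 of 10, namely WWTR1, LATS2, CCN1 and the dim ANKRD1, beside 676 of the 12286 genes, and the methods' t-test gave 1 of 10 (ANKRD1). Probe set by probe set, 24 of 28 passed the level. Limma called 0% of the 27307 probe sets that passed, no member among them, and 7 of the 24 member probe sets had an unadjusted p under 0.05, beside 1244 of all. Among the 24, both sh-ACTL6A arrays lay below both scramble arrays for 8, above for 4, and the groups overlapped for 12. Groups that did not overlap made up 33.4% of all tested probe sets, and 15.1% of all were lower in sh-ACTL6A. At the gene level, the groups did not overlap for 5 of 10 members, 4 lower and 1 higher, beside 34.6% of genes tested. ANKRD1 is among the 4 lower genes and the 8 lower probe sets, and in each count at an unadjusted p under 0.05. It passed the level only through the scramble arrays, so its place in these counts supports nothing by itself.

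**Figure D2:**
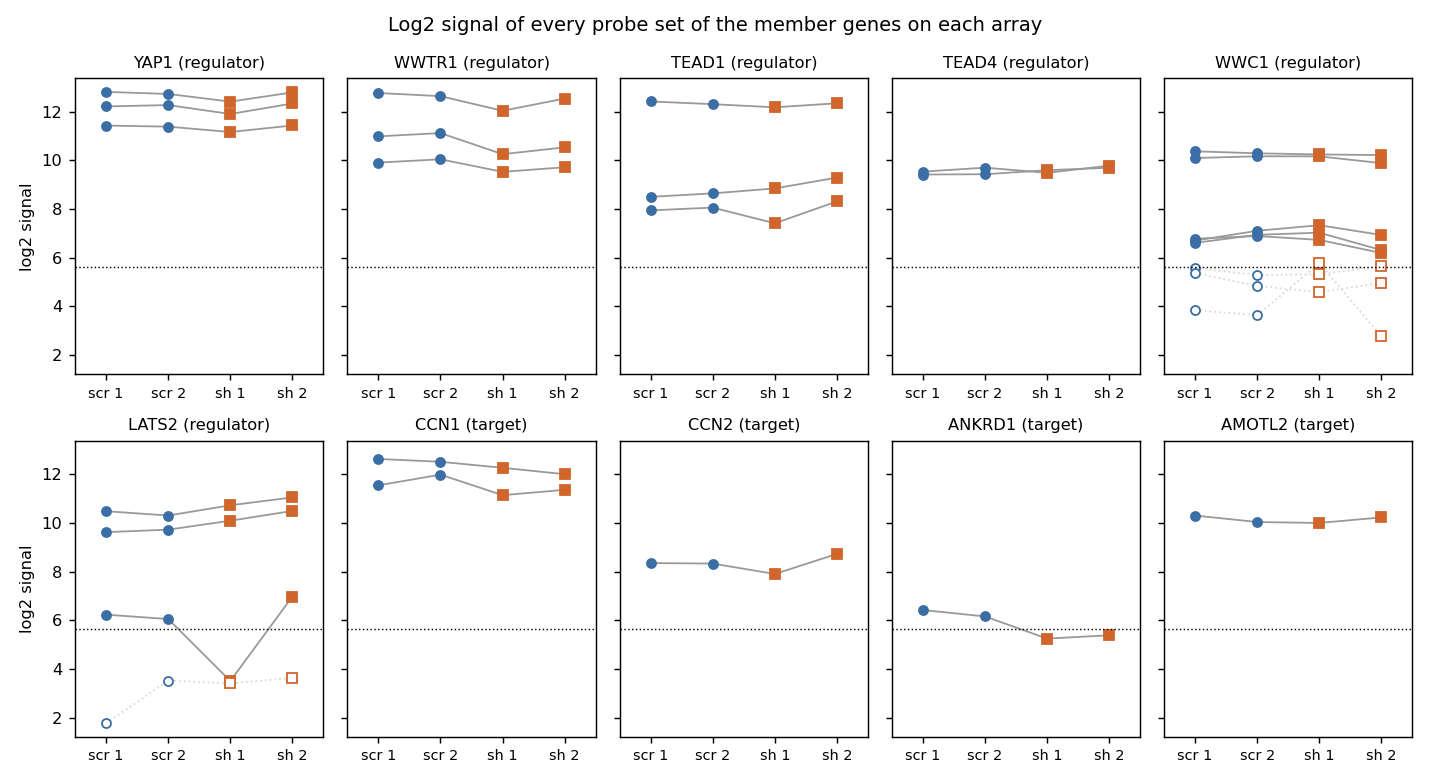
Log2 signal (y axis) of the 28 member probe sets on scramble arrays 1 and 2 (scr, blue circles) and sh-ACTL6A arrays 1 and 2 (sh, orange squares). Each line is 1 probe set, dotted with open symbols for the 4 below the mean signal level of 5.63 (dotted horizontal line). All 3 WWTR1 and both CCN1 probe sets were lower on both sh-ACTL6A arrays, while the brightest YAP1, TEAD1 and TEAD4 probe sets overlapped.

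Of the coactivators, TAZ was lower on both sh-ACTL6A arrays and YAP on 1 of them. YAP1 encodes the coactivator YAP. Its brightest probe set read 12.81 and 12.73 log2 in scramble and 12.41 and 12.79 in sh-ACTL6A. Only sh-ACTL6A replicate 1 was low, and the groups overlapped on all 3 YAP1 probe sets. The difference, sh-ACTL6A minus scramble, was -0.17 in log2 units (95% confidence interval -0.50 to 0.16, SE 0.14, limma adjusted p = 0.941). On the 3 probe sets replicate 1 differed from the scramble mean by -0.36 to -0.24 and replicate 2 by 0.02 to 0.09.

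WWTR1 encodes TAZ, which shares the TEAD partners of YAP. Its brightest probe set read 12.77 and 12.64 in scramble and 12.03 and 12.54 in sh-ACTL6A. The sh-ACTL6A arrays were the lower ones without overlap, replicate 1 further than replicate 2. The difference was -0.41 (SE 0.17, 95% confidence interval -0.81 to -0.02, limma unadjusted p = 0.0404, adjusted p = 0.889), so it did not pass the threshold. The second probe set read 10.99 and 11.12 against 10.25 and 10.53, a difference of -0.66. The last one read 9.91 and 10.04 against 9.53 and 9.72, a difference of -0.35. All 3 WWTR1 probe sets thus lay lower in both sh-ACTL6A arrays, and the second had the smallest p of the member probe sets (limma unadjusted p = 0.00356, adjusted over all probe sets 0.761). In bulk RNA, fewer cells that express a gene and less of its RNA per cell cannot be told apart.

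TEAD1 and TEAD4 encode the DNA-binding partners of YAP and TAZ. The brightest TEAD1 probe set read 12.42 and 12.31 in scramble and 12.18 and 12.34 in sh-ACTL6A, with overlap. Its difference was -0.10 (SE 0.12, 95% confidence interval -0.38 to 0.17). The probe sets of TEAD1 disagreed in sign. A dimmer one read 8.50 and 8.64 against 8.85 and 9.29, higher without overlap by 0.50, and another read 7.94 and 8.06 against 7.42 and 8.31, a difference of -0.14 with overlap. The brightest TEAD4 probe set read 9.54 and 9.70 in scramble and 9.49 and 9.78 in sh-ACTL6A, a difference of 0.02 (SE 0.17, 95% confidence interval -0.39 to 0.43). Its other probe set read 9.42 and 9.43 against 9.59 and 9.70, higher without overlap by 0.22. Neither factor passed the test with any probe set.

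WWC1 and LATS2 stand upstream of YAP and TAZ. WWC1 had 8 probe sets, of which 5 passed the signal level. The brightest read 10.37 and 10.29 in scramble and 10.24 and 10.22 in sh-ACTL6A. The sh-ACTL6A arrays were lower without overlap, by a small step of -0.10 (SE 0.14, 95% confidence interval -0.43 to 0.23, limma adjusted p = 0.965). Over the 5 probe sets that passed, the differences ran from -0.37 to 0.23, 2 lower without overlap and 3 overlapping.

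LATS2 encodes the kinase that inactivates YAP and TAZ, and its difference had the opposite sign to that of WWTR1. Its brightest probe set read 10.49 and 10.31 in scramble and 10.73 and 11.05 in sh-ACTL6A. Both sh-ACTL6A arrays were the higher ones. The difference was 0.49 (SE 0.17, 95% confidence interval 0.11 to 0.88, limma unadjusted p = 0.0184, adjusted p = 0.826). The second probe set read 9.63 and 9.73 against 10.10 and 10.50, higher without overlap by 0.62. A dim probe set read 6.24 and 6.06 against 3.51 and 6.98, so the sh-ACTL6A arrays lay on either side of the scramble arrays, and the last one was below the signal level. With the mean of its 4 probe sets the LATS2 difference was 0.27 (SE 0.38). LATS2 did not pass the threshold.

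Of the targets, CCN1 and ANKRD1 were lower on both sh-ACTL6A arrays and CCN2 and AMOTL2 were not. CCN1 encodes a secreted matricellular protein. Its brightest probe set read 12.63 and 12.52 in scramble and 12.27 and 12.01 in sh-ACTL6A, without overlap. The difference was -0.44 (SE 0.13, 95% confidence interval -0.73 to -0.14, limma unadjusted p = 0.0100), with the smallest adjusted p of the 10 genes (0.739). The second CCN1 probe set read 11.55 and 11.99 against 11.14 and 11.36, a difference of -0.51, also without overlap. CCN2 encodes connective tissue growth factor and is the member with 3 copies of the TEAD letters in its window. Its only probe set read 8.36 and 8.34 in scramble and 7.91 and 8.73 in sh-ACTL6A. One sh-ACTL6A array lay below the scramble pair and the other above it, and the difference was -0.03 (SE 0.28, 95% confidence interval -0.69 to 0.63). 

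ANKRD1 encodes an ankyrin repeat protein and is a widely used readout of YAP. Its only probe set read 6.43 and 6.16 in scramble and 5.26 and 5.39 in sh-ACTL6A. Both sh-ACTL6A arrays were lower, and both lay under the signal level of 5.63, so this probe set passed only through the scramble arrays and its fitted difference supports nothing by itself. That difference was -0.97 (SE 0.38, 95% confidence interval -1.86 to -0.08, limma unadjusted p = 0.0361, adjusted p = 0.871). AMOTL2 encodes an angiomotin family protein that holds YAP at cell junctions. It read 10.31 and 10.04 in scramble and 10.00 and 10.23 in sh-ACTL6A, with overlap and a difference of -0.06 (SE 0.17, 95% confidence interval -0.45 to 0.34).

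As groups, the regulators had a median difference of -0.10, with 4 of 6 below 0, and the targets one of -0.25, with 4 of 4 below 0. The target median depends on ANKRD1, which passed the signal level only through the scramble arrays. Apart from ANKRD1, CCN1 was at -0.44, CCN2 at -0.03 and AMOTL2 at -0.06, so the target median does not set the targets apart from the regulators. The median over all genes tested was 0.009, with 5913 of 12286 below 0. Of the 5 target probe sets, 3 were lower without overlap, namely both of CCN1 and that of ANKRD1, and 2 overlapped. Of the 19 regulator probe sets that passed the level, 5 were lower, 4 were higher and 10 overlapped. Beside these, the groups did not overlap for 33.4% of all tested probe sets, and 15.1% of all were lower in sh-ACTL6A. These counts describe the members and were not tested as groups.

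**Figure D3:**
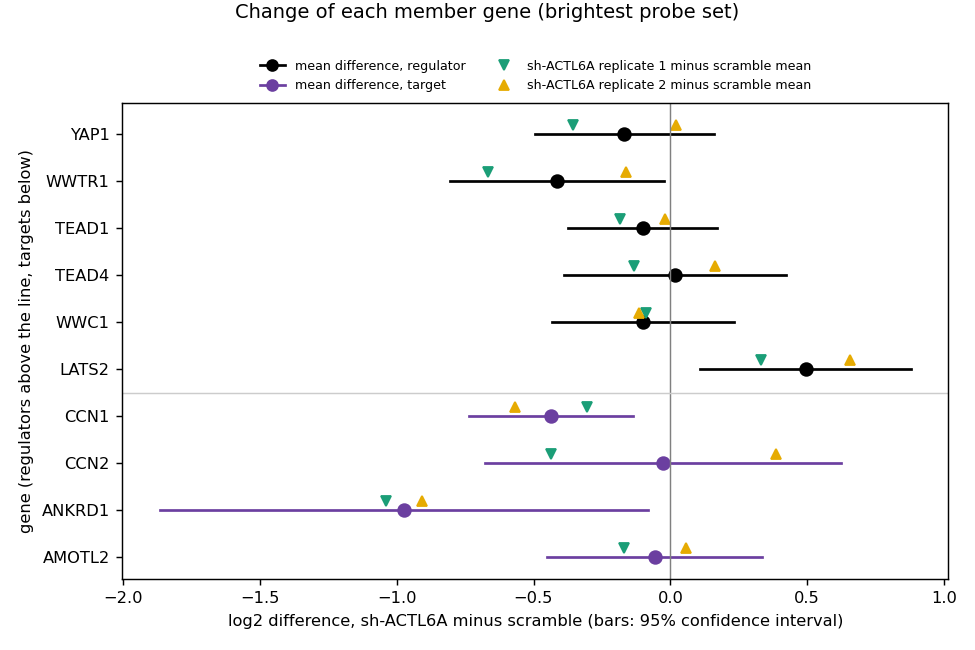
Log2 difference, sh-ACTL6A minus scramble, of each member gene by its brightest probe set (circles, bars give the 95% confidence interval from limma), with the difference of each sh-ACTL6A array from the scramble mean (triangles). The WWTR1 and CCN1 intervals lie below 0 and the LATS2 interval above it, none of the 10 genes passed after adjustment, and ANKRD1, with both sh-ACTL6A arrays under the signal level, has the widest interval.

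Each sh-ACTL6A array was then set against the scramble arrays separately, since the arrays may carry different hairpins. In this limma fit the spread came from the scramble pair and from the trend over all genes, so a lone sh-ACTL6A array was taken to vary like the scramble arrays, and both contrasts share those arrays. ACTL6A differed from the scramble mean by -1.71 on replicate 1 and -1.55 on replicate 2. Replicate 1 called 2.50% of the 12286 genes at adjusted p under 0.05, and 1 of the 10 members was among them. This was WWTR1, at -0.67 (SE 0.11, limma adjusted p = 0.00368). YAP1 came next at -0.36 (adjusted p = 0.0963) and did not pass. Replicate 2 called 3.25% of genes, and 2 of the 10 members were among them. They were CCN1 at -0.57 (SE 0.11, adjusted p = 0.0116) and LATS2 at 0.66 (SE 0.16, adjusted p = 0.0316). No member passed on both arrays. These calls used the brightest probe set of each gene, and for CCN1 the order of the arrays changed with the probe set. The brightest was at -0.31 on replicate 1 and -0.57 on replicate 2, the other at -0.62 and -0.41.

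Side by side, WWTR1 was at -0.16 on replicate 2 (adjusted p = 0.538), CCN1 at -0.31 on replicate 1 (adjusted p = 0.228) and LATS2 at 0.33 on replicate 1 (adjusted p = 0.409). ANKRD1 was at -1.04 on replicate 1 and -0.91 on replicate 2 (adjusted p = 0.444 and 0.446). CCN2 was at -0.44 and 0.39, on opposite sides of the scramble mean (adjusted p = 0.486 and 0.470). TEAD1 was at -0.18 and -0.02, TEAD4 at -0.13 and 0.16, WWC1 at -0.09 and -0.11, and AMOTL2 at -0.17 and 0.06. These 4 genes had adjusted p-values of 0.578 or more on each array. WWC1 was thus close to the scramble level on both arrays by its brightest probe set only. Over its 5 probe sets above the signal level, differences from the scramble mean ran from -0.10 to 0.43 on replicate 1. On replicate 2 they ran from -0.64 to 0.03.

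The direct comparison of sh-ACTL6A replicate 2 with replicate 1 sets 1 array against 1 array, with the spread again borrowed from the scramble pair. Over all genes tested the root mean square difference was 0.44 within the sh-ACTL6A pair and 0.37 within the scramble pair. This comparison of arrays called 4.28% of genes, and 1 of the 10 members was among them. WWTR1 was higher on replicate 2 by 0.50 (SE 0.13, limma adjusted p = 0.0354), a call lost with median centring (0.142), without the intensity trend (0.410) and with the mean of its probe sets (0.455). YAP1 was at 0.38 (adjusted p = 0.0975) and CCN2 at 0.82 (adjusted p = 0.108), neither past the threshold, nor did LATS2 at 0.32 (adjusted p = 0.402) or CCN1 at -0.26 (adjusted p = 0.336) pass. Replicates 1 and 2 also differed in the 3′ minus 5′ signal of ACTB given above, whose part in these differences was not tested. With the spread estimated from both groups instead, an alternative added after seeing the data, no gene was called on either array, ACTL6A included, and the adjusted p was 0.988 for WWTR1 on replicate 1 and 0.844 for both CCN1 and LATS2 on replicate 2. The 3 genes also lost their single-array calls without the intensity trend and when each gene was taken as the mean of its probe sets, and LATS2 also with median centring (adjusted p = 0.0790).

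The median of the regulators was -0.16 on replicate 1 and 0.001 on replicate 2. That of the targets was -0.37 and -0.26, with ANKRD1 among them, which passed the signal level only through the scramble arrays. Apart from ANKRD1, CCN1 was at -0.31 and -0.57, CCN2 at -0.44 and 0.39, and AMOTL2 at -0.17 and 0.06. On replicate 1 these targets were all below the scramble mean, as was ANKRD1. On replicate 2 CCN1 and ANKRD1 were below it and CCN2 and AMOTL2 above it. The sign of the target median on replicate 2 therefore depends on ANKRD1. Over all genes tested the medians were 0.03 and 0.02. On replicate 1, 5 of 5 target probe sets and 12 of 19 regulator probe sets were below the scramble mean. On replicate 2, 3 of 5 and 8 of 19 were, and the ANKRD1 probe set was among the targets counted on both replicates.

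**Figure D4:**
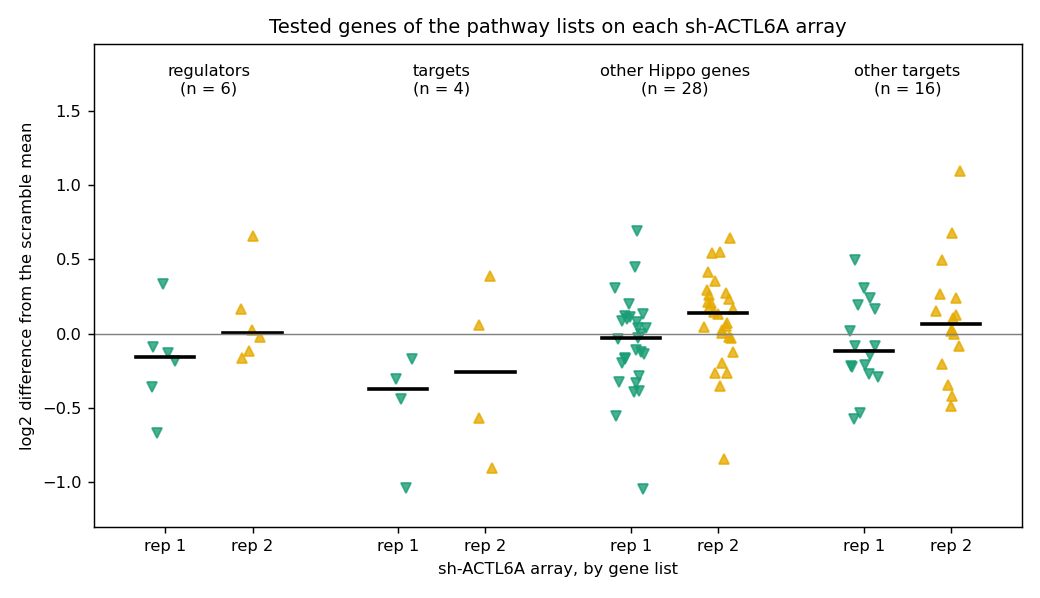
Log2 difference of each sh-ACTL6A array from the scramble mean (rep 1, downward triangles, and rep 2, upward triangles) for the tested genes of 4 lists, with the list median as a black bar. The target medians lay at -0.37 and -0.26 with ANKRD1 among them, which passed the signal level only through the scramble arrays. Both wider lists had medians within 0.14 of 0.

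The wider pathway was read from a list of 40 other Hippo genes (kinases, scaffolds, polarity proteins, other TEAD factors and their inhibitors), of which 28 were tested. There were 16 above 0 and 12 below, with a median of 0.05, 0 called by limma, 3 with an unadjusted p under 0.05, and 1 by the methods' t-test. MOB1B, a coactivator of the LATS kinases, read 11.35 and 11.05 in scramble and 10.15 and 10.35 in sh-ACTL6A, a difference of -0.94 (SE 0.16, limma adjusted p = 0.392) on its only probe set. MOB1B passed limma's test without sh-ACTL6A replicate 1 (adjusted p = 0.00891) and without sh-ACTL6A replicate 2 (0.00126), where the lone array is taken to vary like the scramble pair, and not without scramble replicate 1 (0.99958) or 2 (0.741). Both sh-ACTL6A arrays were under both scramble arrays. TAOK1, a kinase at the head of the cascade, was at -0.45 (SE 0.12, adjusted p = 0.653), with 5 of 5 probe sets above the level negative. VGLL4, which competes with YAP for TEAD, was at 0.50 (SE 0.19, adjusted p = 0.862), while its second probe set was at 0.04 with overlap. The VGLL4 difference was 0.27 with the mean of both and also without scramble replicate 1. TAOK2 was at 0.52 (SE 0.25, adjusted p = 0.917), or 0.33 without scramble replicate 1, and its 3 probe sets ran from 0.02 to 0.65.

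Of 24 other YAP or TAZ target genes, 16 were tested, 8 above 0 and 8 below, with a median of -0.03. Limma called 0 of them, with 1 at an unadjusted p under 0.05 and 0 by the methods' t-test. DOCK5, an exchange factor for Rac, was at 0.46 (SE 0.17, limma adjusted p = 0.855), with 4 of 4 probe sets above the level positive. NT5E (CD73), which makes adenosine at the cell surface, was at -0.39 (SE 0.19, adjusted p = 0.918), with 4 of 4 probe sets negative. CRIM1, a transmembrane protein that binds bone morphogenetic proteins, was at 0.35 (SE 0.18, adjusted p = 0.918). These other targets thus lay in equal number on both sides of 0. A dim gene counted above 0 passed the signal level only through the sh-ACTL6A arrays, so its sign supports nothing by itself.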

How the data were processed

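Total RNA from SNU638 cells was hybridised as biotin-labelled cRNA to 4 one-colour oligonucleotide arrays, and groups came from the sample labels. Values for 54675 probe sets were deposited by the authors as log2 signals, made with MAS5 per the submitters' processing notes, its version not given in the sources used here. Each array is scaled as a whole, and the trimmed mean linear signal, averaged over the 4 arrays, was 500.0. MAS5 signals are noisy at low levels, and the number of arrays limits the precision. The deposited log2 values were used without further normalisation.

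Gene names came from the platform's probe table. Probe sets with 1 symbol numbered 41091, those with several 1801 and those with none 11721, and only the first kind was named. A gene was represented by its brightest probe set and tested if its mean log2 signal was at or above the 50th percentile of probe sets that are not controls (5.63). Tests used limma 3.58.1 in R 4.3.3 (the lmFit and eBayes functions, the variance prior following signal). They were 2-sided, and p-values were adjusted by Benjamini and Hochberg's method over all 12286 genes or all 27307 probe sets with a threshold of 0.05. Single arrays were contrasted in a fit with 3 coefficients (14.2 degrees of freedom). The functions were tested on simulated data.

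The member genes and lists were chosen with earlier results of these data known. All members, ACTL6A, and the 4 genes with the smallest unadjusted p from each wider list were named, and 2 genes that this rule covers are not reported here. The alternatives were 2 other scalings (quantile normalisation and median centring), a filter on dim genes at the 75th percentile or none, averaging the probe sets of each gene, an offset of 16 in linear signal, dropping the trend, a replicate block, leave-one-out fits, the methods' t-test and, added later, a spread from both groups.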

Additional observations from a re-analysis of the deposited data

How the results depend on the processing

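No member gene was called between the groups under any alternative that used all 4 arrays, and the WWTR1, CCN1, LATS2 and ANKRD1 differences kept their sign in each, except that ANKRD1 was too dim for the stricter filter. With the mean of all probe sets LATS2 was at 0.27 (SE 0.38). Genes called lower numbered 0 after quantile normalisation, with no filter, without the trend and by the methods' t-test adjusted over all genes. They numbered 2 with the replicate block, which changed no other call. The correlation of same-numbered deviations was 0.06, while the 3′ minus 5′ signal of ACTB was higher on both arrays numbered 1. Whether the numbers pair the samples is therefore not settled. The ACTL6A call was lost in the same 4 settings and without either scramble array. Leaving out 1 array in turn, with the lone array taken to vary like the other group, gave 0 to 141 genes higher, 0 to 260 lower and 0 to 2 members called. WWTR1 passed without sh-ACTL6A replicate 2 (adjusted p = 0.00241), and CCN1 (0.0111) and LATS2 (0.0321) without sh-ACTL6A replicate 1. In the wider lists, MOB1B passed without either sh-ACTL6A array, TAOK1 without replicate 2 (0.0117) and DOCK5 without replicate 1 (0.0150). Without replicate 2 DOCK5 was at 0.24 and CRIM1 at 0.20. The target median, with ANKRD1 included, then ran from -0.37 to -0.20. YAP1 ran from -0.36 to 0.0217, CCN2 from -0.44 to 0.39, TEAD4 from -0.13 to 0.16 and AMOTL2 from -0.19 to 0.0759. The mean of all probe sets gave a regulator median of 0.0303 and TEAD1 0.0857, quantile normalisation gave TEAD4 -0.0119 and median centring gave CCN2 0.00571. No scaling moved the median of all genes by over 0.04.

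For single arrays, median centring called 192 genes on sh-ACTL6A replicate 1, 1 member on replicate 2 (LATS2 was lost, adjusted p = 0.0790) and 0 members between the replicates. The mean of all probe sets called 11, 27 and 22 genes on replicate 1, on replicate 2 and between them, with 0 members. No trend, and a spread from both groups, called 0 genes on either replicate, as did no trend between them. Quantile normalisation called 2 members between the replicates, YAP1 (0.0323) being added. Signs turned for TEAD1 on replicate 2 (0.0193 after quantile normalisation, 0.34 with the mean of probe sets), WWC1 on replicate 1 (0.0121 with median centring, 0.24 with the mean), YAP1 on replicate 2 (-0.0142 with median centring), TEAD4 (0.0194) and LATS2 (-0.28) on replicate 1 with the mean, and ANKRD1 between the replicates (-0.00771 with quantile normalisation, -0.000926 with median centring). The cause was not tested. No scramble array could be left out of the single-array fit, which would then have no replicate.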
